A study of Homo sapiens with 2 samples.

Results

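LDB1 does not touch DNA itself and works through partners, and the question addressed here was whether LDB1 also sat at the genes that encode LDB1 and these partners. The genes were LDB1 and its relative LDB2, the LIM-only adaptors LMO2 and LMO4, the basic helix-loop-helix factors TAL1 and LYL1, the E proteins TCF3 and TCF12, and the single-stranded DNA binding proteins SSBP2 and SSBP3. These 10 genes were set by their role in the complex, out of 20033 protein-coding genes of GENCODE release 44. Each gene body was extended by 50 kb on both sides, and every deposited LDB1 peak that overlapped this window was taken. The windows held 45 of the 11046 peaks.

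The peaks came from CUT&Tag, in which an antibody steers a transposase to a chromatin protein and the enzyme tags the DNA close by, in NB4, a human cell line from acute promyelocytic leukemia. The series had 2 libraries, the first made with an LDB1 antibody and labelled LDB1 overexpression, the second made with IgG and labelled untreated. The study's methods for CUT&Tag mention no overexpression, so the label stands on its own. By the labels, antibody and treatment cannot be told apart, and single libraries allow no test between them. The list gave the position and length of each LDB1 peak without height or summit, so the depth behind a peak is unknown and the midpoint stood in for the summit.

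In blood cell precursors, LDB1 binds LMO2, LMO2 holds a TAL1 or LYL1 dimer with an E protein, and this dimer and a GATA factor contact DNA side by side. SSBP proteins bind LDB1 and protect it from degradation. LDB1 molecules also bind each other, and the complex is known for bringing distant enhancers to promoters. The DNA element named for the complex is a composite of the second part of an E-box and a GATA site on the same strand.

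To show the DNA under these peaks first, the stretches around each composite in the windows are given, since this is the element that joins the helix-loop-helix and GATA partners on DNA. The composite was searched on both strands as CTG with a GATA motif after 7 or 8 bases of any kind, so each composite holds a GATA motif by construction. The GATA motif was the word GATA with A or T before it and A or G after it. The composite occurred 7 times, in 5 peaks at 3 genes. Each line reads 5′ to 3′ on the strand named, in hg38, with CTG and the GATA motif in capitals.
TAL1 chr1:47181292-47181348, minus strand: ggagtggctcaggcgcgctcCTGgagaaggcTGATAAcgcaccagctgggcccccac
TAL1 chr1:47182550-47182605, minus strand: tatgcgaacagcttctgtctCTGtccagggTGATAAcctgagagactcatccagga
LYL1 chr19:13069738-13069794, plus strand: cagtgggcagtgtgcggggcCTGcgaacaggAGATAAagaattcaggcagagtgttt
LYL1 chr19:13069810-13069865, plus strand: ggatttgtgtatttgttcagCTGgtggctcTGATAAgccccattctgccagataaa
LYL1 chr19:13102863-13102891, plus strand: ggctgcCTGgccgcgccTGATAAggagcc
SSBP3 chr1:54212923-54212979, minus strand: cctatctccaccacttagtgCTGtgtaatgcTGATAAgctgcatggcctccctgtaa
SSBP3 chr1:54375758-54375814, minus strand: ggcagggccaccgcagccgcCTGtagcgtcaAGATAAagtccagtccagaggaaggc

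All 7 stretches had CTG ahead of a GATA motif ending in AA. The spacing was 8 bases in 5 of them and 7 bases in the other two. The pair of composites near LYL1 at 13069738 and 13069810 lay in 1 peak inside an intron of NFIX, and the stretch at 13102863 lay in the peak over the 5′ end of LYL1 itself. The composites credited to TAL1 lay 50905 and 49648 bp downstream of its 5′ end, in the longest peak at any of the 10 genes. The SSBP3 composites lay in the neighbouring gene MRPL37 and in SSBP3 intron 4.

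The central 200 bases of 6 peaks are shown next, for the only LDB1 peak, the 2 LMO2 peaks richest in GATA motifs, the TAL1 peak closest to its 5′ end, the NFIX peak at LYL1 and the longest SSBP3 peak. All are on the plus strand of hg38, and capitals mark a GATA motif or an E-box on either strand. The E-box was CAGCTG, the variant CAGATG or the variant CAGGTG.
LDB1 chr10:102112847-102113046, plus strand: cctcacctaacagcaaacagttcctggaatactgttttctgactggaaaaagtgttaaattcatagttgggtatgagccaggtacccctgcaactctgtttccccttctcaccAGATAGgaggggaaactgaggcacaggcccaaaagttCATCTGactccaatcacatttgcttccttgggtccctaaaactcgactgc
LMO2 chr11:33885406-33885605, plus strand: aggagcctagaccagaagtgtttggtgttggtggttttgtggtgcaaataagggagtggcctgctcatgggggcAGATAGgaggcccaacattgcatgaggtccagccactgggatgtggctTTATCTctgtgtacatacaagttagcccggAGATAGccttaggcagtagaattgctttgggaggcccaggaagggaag
LMO2 chr11:33937302-33937501, plus strand: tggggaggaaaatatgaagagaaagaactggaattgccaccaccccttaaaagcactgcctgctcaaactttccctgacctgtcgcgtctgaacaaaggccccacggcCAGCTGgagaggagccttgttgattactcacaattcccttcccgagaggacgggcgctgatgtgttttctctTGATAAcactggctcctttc
TAL1 chr1:47232362-47232561, plus strand: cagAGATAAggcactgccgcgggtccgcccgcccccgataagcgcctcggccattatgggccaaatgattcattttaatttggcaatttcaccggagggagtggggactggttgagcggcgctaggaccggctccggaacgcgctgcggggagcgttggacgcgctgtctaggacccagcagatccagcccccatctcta
LYL1 chr19:13069737-13069936, plus strand: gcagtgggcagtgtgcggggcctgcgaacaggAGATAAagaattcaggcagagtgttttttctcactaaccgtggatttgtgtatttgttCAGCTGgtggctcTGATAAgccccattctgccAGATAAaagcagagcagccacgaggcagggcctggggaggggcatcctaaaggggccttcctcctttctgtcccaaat
SSBP3 chr1:54409338-54409537, plus strand: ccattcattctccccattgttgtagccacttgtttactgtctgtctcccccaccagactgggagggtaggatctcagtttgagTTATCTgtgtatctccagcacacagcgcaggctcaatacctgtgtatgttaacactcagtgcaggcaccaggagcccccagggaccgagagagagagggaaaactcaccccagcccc

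The LMO2 intron window at 33885406 held 3 GATA motifs and no E-box. The LDB1 window and the LMO2 window at 33937302 held 1 GATA motif and 1 E-box each. The TAL1 window held a single GATA motif at its left end, and the NFIX window held 3 GATA motifs and 1 E-box, whose CTG is that of the composite at 13069810. No window here overlapped an annotated exon of a protein-coding gene.

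To see how LDB1 peaks were spread over the 10 genes, peaks were counted in each window. Results showed that 8 of 10 genes had at least 1 peak (80%, 95% interval 49 to 94.3%), against 44.8% of all protein-coding genes counted in the same way. LDB2 and LMO4 had none. The genes had a median of 2.5 peaks, while all protein-coding genes had a median of 0 and an upper quartile of 2. The 45 peaks were unevenly shared, since TAL1, LMO2 and SSBP3 together held 31 of them (68.9%). Intervals given here are 95% intervals and cover counting error in this library only, and neighbouring peaks at a gene are not independent of each other.

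Because long genes have long windows, counts were also divided by window length. The 10 windows added up to 2435654 bp and held 1.85 peaks per 100 kb (1.35 to 2.47). The whole genome held 0.358, but this includes assembly gaps and sequence far from genes, so it is not a like measure for gene windows. TAL1 stood at 11.2 peaks per 100 kb, a density that 27 protein-coding genes (0.135%) reached or passed, the gene itself counted here and below. Its neighbour PDZK1IP1, whose window overlaps that of TAL1, had 12 peaks at 11.17 per 100 kb. The density thus belongs to the locus and is not particular to TAL1. LMO2 at 7.49 was matched or passed by 0.759% of genes, LYL1 at 6.72 by 1.1% and SSBP3 at 2.78 by 8.66%. TCF3 at 1.4, LDB1 at 0.878, TCF12 at 0.624 and SSBP2 at 0.228 lay lower, and 20.8%, 30.4%, 38.8% and 44.4% of genes had at least those densities. The median of the 10 genes was 1.14 per 100 kb, against a median of 0 and an upper quartile of 0.972 for all genes.

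**Figure D1:**
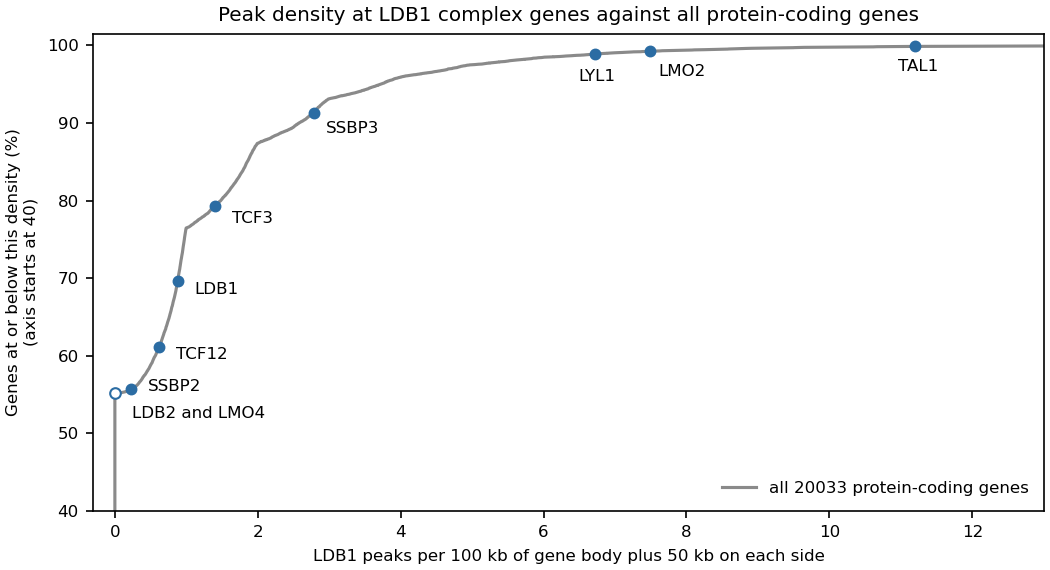
LDB1 peaks per 100 kb of the gene body plus 50 kb on each side (x axis) against the percentage of the 20033 protein-coding genes at or below that density (y axis, starting at 40%), with the grey line for all genes, filled points for the 8 genes with a peak and an open point for LDB2 and LMO4. TAL1, LMO2 and LYL1 sit at the flat upper end at 11.2, 7.49 and 6.72, and TCF12 and SSBP2 sit near the genes without a peak.

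Among the adaptors, LDB1 (ENSG00000198728.11, chr10:102106489-102120368, minus strand) had 1 peak of 1253 bp at chr10:102112320-102113572. It lay in intron 1, 7422 bp from the 5′ end of the gene and 1813 bp from the closest start of an LDB1 transcript. Among all peaks 657, itself included, were at least as long. The peak contained 5 GATA motifs and 4 E-boxes but no composite. The peak held no base of an exon of the LDB1 transcript marked canonical in GENCODE, and exons of other LDB1 transcripts were not counted. The library is labelled as LDB1 overexpression, and whether this bears on the peak was not tested. The next peak on either side was 281394 and 479832 bp away. LDB2 (ENSG00000169744.13, chr4:16501541-16898678, minus strand), which can take the place of LDB1 as an adaptor, had no peak in the list nearer than 771864 bp.

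LMO2 (ENSG00000135363.12, chr11:33858576-33892076, minus strand), the bridge between LDB1 and the helix-loop-helix dimer, had 10 peaks, of which 8 lay upstream, 2 in the gene and none downstream. The peak nearest to the 5′ end, chr11:33891831-33892360 with 530 bp, was centred 19 bp upstream of it. This peak covered 246 bp of exons of the canonical LMO2 transcript. Peaks of 598 and 308 bp followed at 1015 and 1872 bp upstream, with gaps of 432 and 404 bp, and a peak of 325 bp lay 6939 bp upstream. Inside the gene, a peak of 643 bp with 3 GATA motifs lay in intron 1 and a peak of 296 bp in intron 2. After a gap of 35352 bp without a peak, 4 further peaks stood between 42599 and 49916 bp upstream. Among these was the longest at LMO2 with 1016 bp, at chr11:33941485-33942500, which crossed the window's edge, and a peak of 837 bp with 4 GATA motifs. The centre of the 743 bp peak in this group occurred 3 times in hg38. In total 7 of the 10 LMO2 peaks had a GATA motif and 8 had an E-box, and no composite was found in any of them. Of all deposited peaks, 71.4% had a GATA motif, 74% an E-box and 22.4% a composite over their whole length. LMO2 was the closest protein-coding gene start for all 10. Its window overlapped no other protein-coding gene, so this does not by itself credit the peaks to LMO2.

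The upstream series of LMO2 peaks went on beyond the window. The next peak began 435 bp after the last one inside, and 4 peaks lay within 100 kb of LMO2 but outside its window. Of these only a peak of 1214 bp centred 53068 bp upstream is described here. It had a composite, and the stretch around it is shown in the same way.
LMO2 chr11:33945038-33945093, plus strand: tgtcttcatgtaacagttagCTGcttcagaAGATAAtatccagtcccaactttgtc

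The spacing was 7 bases. The peak had a centre found once in hg38 and had the composite in its central 200 bp. The absence of composites at LMO2 thus held for the 50 kb window and not for a window of 100 kb. LMO4 (ENSG00000143013.13, chr1:87328880-87348923, plus strand), a LIM-only adaptor that is widely expressed outside blood, had no peak in its window, and the nearest was 86374 bp from the gene and 441 bp long.

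TAL1 (ENSG00000162367.12, chr1:47216290-47232225, minus strand), a helix-loop-helix factor required to form blood stem cells, had 13 peaks, the most of the 10 genes. They covered 9.53% of its window, with 3 upstream, 3 in the gene and 7 downstream. The peak nearest to the 5′ end was chr1:47232060-47232863 with 804 bp, centred 236 bp upstream. This peak overlapped 59 bp of exons of the canonical TAL1 transcript. Peaks of 681, 260 and 584 bp followed inside the gene, centred 736, 2472 and 3147 bp from the 5′ end, and the 260 bp peak lay 18 bp from the start of a shorter TAL1 transcript. Upstream, a peak of 1023 bp with 4 GATA motifs and a peak of 269 bp lay 9410 and 7502 bp away, with no peak from there to the window's edge, where STIL lies.

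Downstream of TAL1, peaks of 773 and 465 bp lay 18757 and 20376 bp from the 5′ end and 5 more lay between 37681 and 52700 bp, around PDZK1IP1. The longest was chr1:47180074-47184306 with 4233 bp, and in the whole list 6 peaks, itself included, were at least that long. It was centred 50035 bp downstream of the TAL1 5′ end, overlapped the 3′ end of PDZK1IP1 by 725 bp, and carried 2 composites, 5 GATA motifs and 16 E-boxes. Its centre of 200 bp held neither GATA motif nor E-box, and its composites lay 870 and 387 bp from the midpoint. An enhancer of TAL1 active in red cell precursors is known on the far side of PDZK1IP1, and whether this peak marks it was not tested. PDZK1IP1 was the closest protein-coding start for the 5 far peaks, and TAL1 for the other 8.

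LYL1 (ENSG00000104903.5, chr19:13099033-13103161, minus strand), the closest relative of TAL1, had 7 peaks, of which 1 lay upstream, 2 in the gene and 4 downstream. Over its 5′ end lay chr19:13101825-13103680 with 1856 bp, centred 409 bp into the gene and 28 bp from a LYL1 transcript start. This peak held 1 composite and 328 bp of exons of the canonical LYL1 transcript. In the list 198 peaks, itself included, were at least as long. A peak of 681 bp stood 2366 bp into the gene, and a peak of 503 bp stood 1582 bp upstream and reached 93 bp into TRMT1. The gaps between these peaks were 689 and 811 bp.

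The other 4 LYL1 peaks lay in introns of NFIX, a neighbour on the opposite strand that encodes a nuclear factor I protein. They were 522, 3250, 410 and 323 bp long and were centred 23460, 33325, 38579 and 51666 bp from the LYL1 5′ end. The 3250 bp peak, chr19:13068212-13071461, was in intron 2, had 2 composites, 4 GATA motifs and 10 E-boxes, and lay 167 bp from an annotated start of a noncoding RNA. Counting itself, the list had 21 peaks at least that long. Of all protein-coding gene starts LYL1 had the closest for these 4 peaks too, but their place inside NFIX means that position alone does not credit them to LYL1.

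The E proteins, which pair with TAL1 or LYL1, had fewer. TCF3 (ENSG00000071564.19, chr19:1609291-1652615, minus strand) had 2 peaks. Its intron 3 held chr19:1632559-1633439 with 881 bp, 1 GATA motif and 2 E-boxes, 19616 bp from the 5′ end. The second, chr19:1573899-1574271 with 373 bp, lay in exon 7 of MBD3, had no GATA motif or E-box, and its centre occurred 6 times in hg38. TCF12 (ENSG00000140262.18, chr15:56918623-57299281, plus strand) had 3 peaks, of 244, 857 and 476 bp, and all lay beyond its 3′ end, the nearest 13237 bp from the gene. The latter pair lay in introns of the noncoding gene LINC01413, at chr15:57321680-57322536 and chr15:57323710-57324185. CGNL1 was the closest protein-coding start to all 3. The gene body of TCF12, 380659 bp long, had no peak in the list.

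The SSBP genes encode stabilisers of LDB1. SSBP2 (ENSG00000145687.17, chr5:81412804-81751797, minus strand) had a single peak, chr5:81758963-81759411 with 449 bp, 7390 bp upstream of its 5′ end. The centre of this peak occurred 19272 times in hg38, and it held no GATA motif and 1 E-box. Whether the reads under it came from this site was not tested. SSBP3 (ENSG00000157216.17, chr1:54225432-54413479, minus strand) had 8 peaks, 7 of them in the gene. A peak of 609 bp, chr1:54406259-54406867, was centred 169 bp from a start of SSBP3, and the longest, chr1:54408954-54409920 with 967 bp and 5 GATA motifs, lay 4042 bp from the 5′ end. Intron 4 held 4 peaks of 251 to 824 bp, and the longest of these, chr1:54375427-54376250, had a composite. A peak of 482 bp in intron 14 stood 226 bp from a start of a short SSBP3 transcript. The only one outside the gene was chr1:54212512-54213281 with 770 bp and a composite, in intron 5 of MRPL37. Every one of the 8 SSBP3 peaks had a GATA motif over its whole length, for 16 motifs in all, against 71.4% of all deposited peaks.

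**Figure D2:**
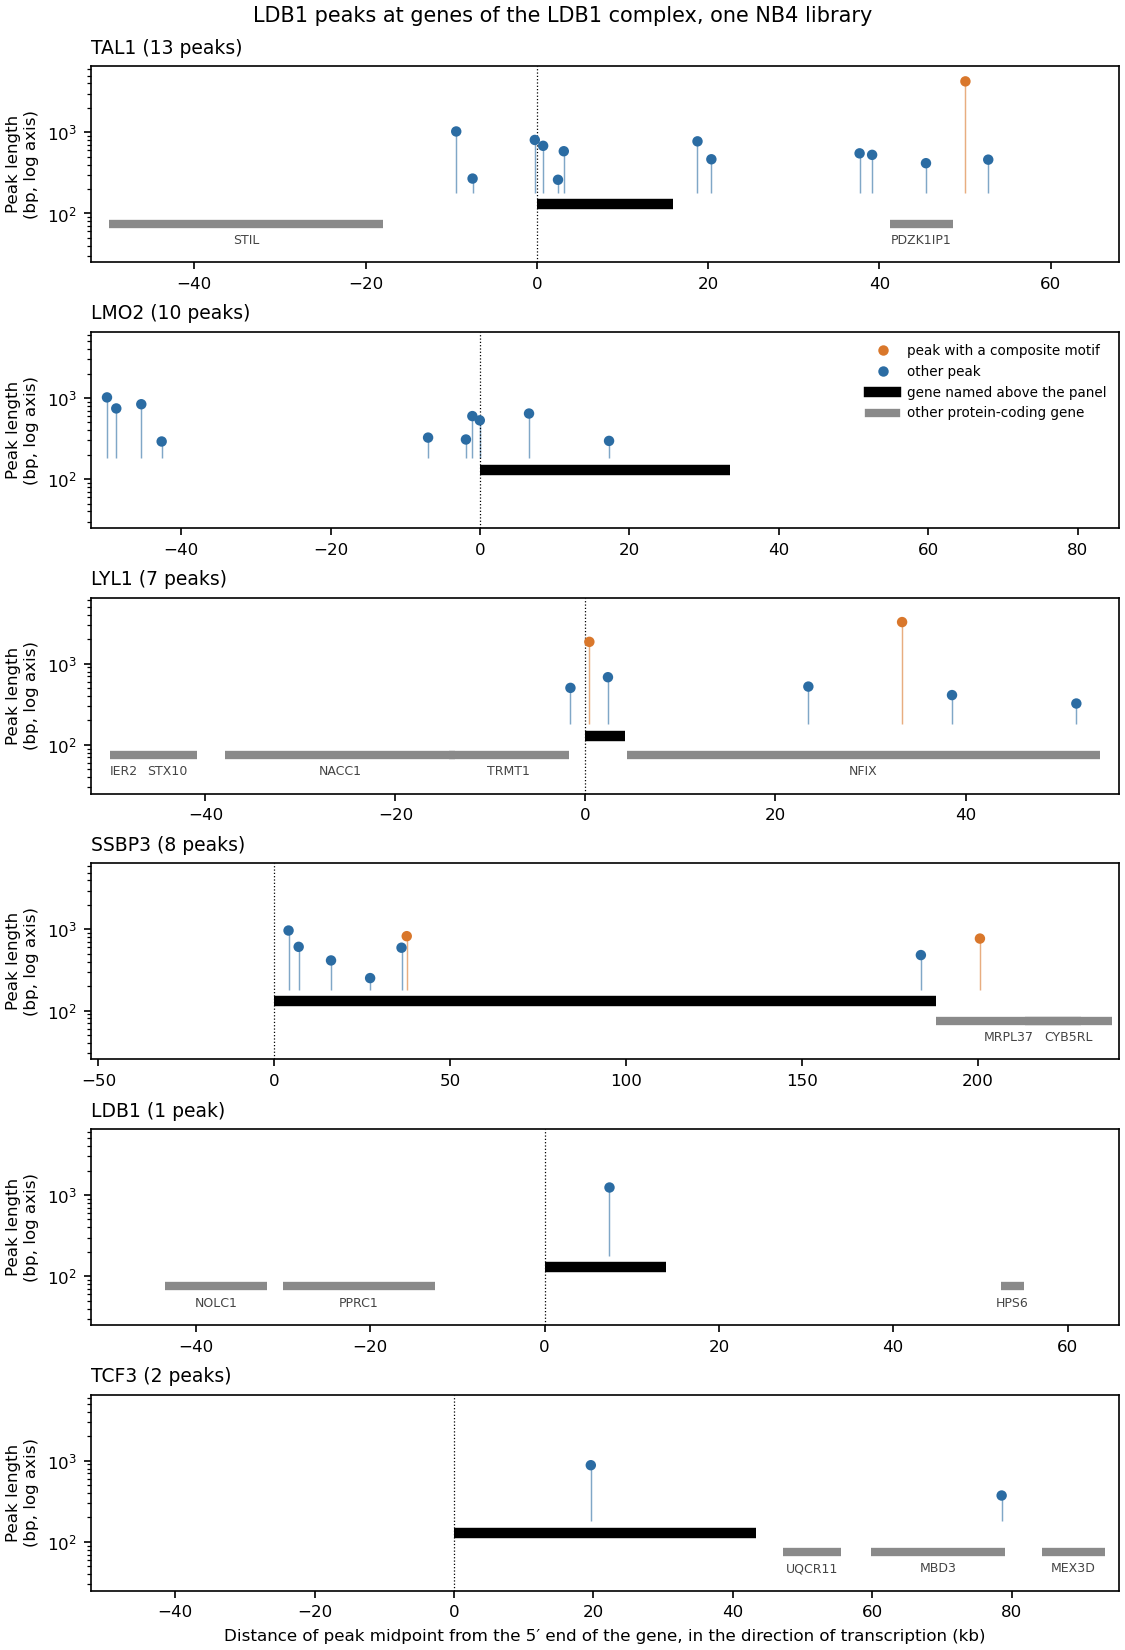
Position of each LDB1 peak at 6 genes, with the distance of the peak midpoint from the 5′ end in kb in the direction of transcription (x axis) and peak length in bp on a log axis (y axis), orange points for peaks with a composite, black bars for the gene and grey bars for other protein-coding genes. The TAL1 panel shows the 4233 bp peak past PDZK1IP1, the LYL1 panel 4 of 7 peaks over NFIX, and the LMO2 panel 8 of 10 peaks upstream.

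To compare positions over all 45 peaks, 13 lay upstream, 16 in the body and 16 downstream of their gene. The midpoint lay in the gene of the complex for 16 peaks, in another protein-coding gene for 7, in a noncoding gene for 3 and between genes for 19. Among the 45 midpoints, 22 were in introns. The nearest protein-coding gene start was that of the partner gene for 34 peaks and that of another gene for 11. Among the gaps to the next peak 11 were under 1 kb, including the gap of 435 bp from LMO2 to a peak outside its window. This count was not set beside that of all peaks, so it does not show closer spacing at these genes. Within 3 kb of a transcript start of their own, 5 genes had a peak midpoint (LDB1, LMO2, TAL1, LYL1 and SSBP3), against 10.3% of all protein-coding genes. With only the 5′ end of each gene, this held for LMO2, TAL1 and LYL1 but not for LDB1 and SSBP3. A single share of all genes is given for both definitions of a start, so the 10.3% cannot be set beside each count. Counting the starts of any annotated transcript, 23 of 45 peaks (51.1%, 37 to 65%) lay within 3 kb, against 35.6% of all 11046 peaks. The 45 peaks were picked for lying in or near a gene, while all peaks include those far from genes. A higher share near starts is thus partly built in, and the 2 shares are not like measures.

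Peak length was the only measure of size in the list. The 45 peaks had a median of 550 bp (465 to 681), with quartiles of 414 and 804 bp, and all peaks had a median of 451 bp (445 to 457), with quartiles of 314 and 666 bp. Of the 45, 6 (13.3%) were 1000 bp or longer, against 10.5% of all peaks. Those 6 lay at TAL1 and LYL1, with 2 each, and at LDB1 and LMO2, with 1 each. Median lengths at the genes with more than 3 peaks were close, at 550 bp for TAL1, 564 bp for LMO2, 522 bp for LYL1 and 602 bp for SSBP3.

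**Figure D3:**
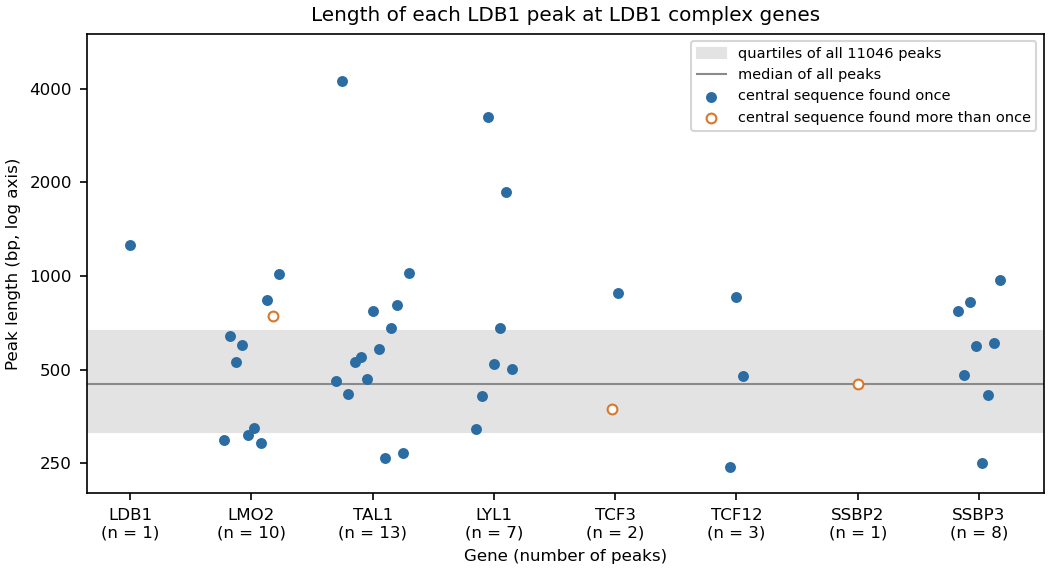
Length in bp on a log axis (y axis) of each of the 45 peaks by gene (x axis), with the median of all 11046 peaks as a line and their quartiles as a band, and open points for the 3 peaks whose central 31 bases occur more than once in hg38. The 4233 bp peak at TAL1 and the 3250 bp peak at LYL1 stand above the others, and the single SSBP2 peak is an open point at 449 bp.

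To ask which DNA motifs the peaks held, the central 200 bp of each was searched. The GATA motif was found in 15 of 45 peaks (33.3%, 21.4 to 47.9%), against 47.1% of all peaks and 16.7% (10.4 to 25.7%) of 90 side windows centred 1000 bp to either side of the midpoint. The composite was found in 3 (6.67%, 2.29 to 17.9%), against 11.2% of all peaks and 1.11% of the side windows. The E-box was found in 16 (35.6%, 23.2 to 50.2%), against 45.8% of all peaks and 40% of the side windows. In these central windows the share of all peaks lay within the interval of the 45 peaks for each of the 3 motifs. Of the side windows 20 (22.2%) overlapped a deposited peak, and the other 70 had GATA in 17.1%, the composite in 1.43% and the E-box in 48.6%, a count added after seeing the data.

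Motifs of other blood factors were counted in the same windows. RUNX motifs (TGTGGT or TGCGGT) were in 5 peaks (11.1%, 4.84 to 23.5%), against 20.5% of all peaks. AP-1 motifs (TGACTCA or TGAGTCA) were in 2 (4.44%), against 9.5%. ETS motifs (AGGAAGT or CGGAAGT) were in none of the 45 centres, where an interval of 0 to 7.87% holds the 6.18% of all peaks. Over the whole length 8 of 45 peaks (17.8%) had an ETS motif, against 15.7% of all.

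Over their whole length, 28 of the 45 peaks (62.2%) had a GATA motif, against 71.4% of all peaks, and 5 (11.1%, 4.84 to 23.5%) had a composite, against 22.4%. Per kb of peak sequence this was 1.78 GATA motifs (1.36 to 2.3) against 2.64, and 0.208 composites (0.0837 to 0.429) against 0.432, so both intervals lay below the value of all peaks. E-boxes were in 36 peaks (80%) against 74%, at 2.77 per kb (2.23 to 3.39) against 3.09. Motifs of 1 peak are not independent of each other, so these exact Poisson intervals are too narrow. By gene, a GATA motif was found in 8 of 8 SSBP3 peaks, 7 of 10 at LMO2, 7 of 13 at TAL1, 2 of 7 at LYL1 and 2 of 3 at TCF12. The median GC content of the central windows was 55.5%, against 51.5% for all peaks, and its part in the motif counts was not tested.

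**Figure D4:**
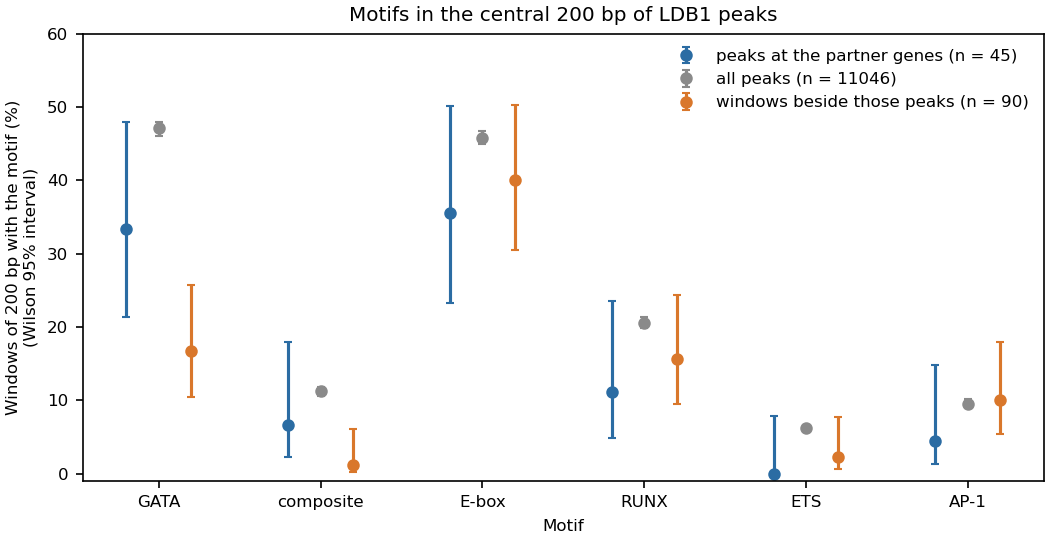
Percentage of 200 bp windows with each motif (y axis, Wilson 95% intervals) for 6 motifs (x axis), in the centres of the 45 peaks (blue), in the centres of all 11046 peaks (grey) and in 90 windows beside the 45 peaks (orange). For GATA the 45 peaks stand at 33.3% between the side windows at 16.7% and all peaks at 47.1%.

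Promoters were compared with the peaks through RefSeq, whose table for GRCh38.p14 gave promoters of 300 bp for 8 of the 10 genes, with no entry for LMO2 and LDB2. A peak covered the whole 300 bp of 1 promoter each of TAL1, LYL1 and SSBP3, and a second TAL1 promoter shared 164 bp with a peak. The other SSBP3 promoter and every listed promoter of LDB1, LMO4, TCF3, TCF12 and SSBP2 overlapped no peak. The share of all promoters in the table that overlap a peak is not given here, so these overlaps have no background beside them. The covered TAL1 promoter had a GATA motif, which is the one in capitals in the TAL1 window shown above. The LYL1 promoter had a GATA motif and the composite shown at 13102863. Among all 35116 promoters in the table, 25% had a GATA motif and 1.34% a composite. The SSBP3 promoter under a peak had none of the 6 motifs.

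To set the 10 genes beside related ones, 21 other genes of the families and known partners were counted in the same windows. A peak was found for 15 of 21 (71.4%, 50 to 86.2%), against 44.8% of all protein-coding genes. Among the GATA factors and their cofactor, GATA1 had 8 peaks (7.42 per 100 kb), GATA2 had 5 (4.39), GATA3 had none and ZFPM1 had 12 (6.53). The corepressor CBFA2T3 had 16 peaks (7.91 per 100 kb), its relative CBFA2T2 had 2, and the repressor GFI1B had 6. Of the paralogs, SSBP4 had 6 peaks, TAL2 had 2, LMO1 and TCF4 had 1 each and LMO3 had none. Inhibitors of helix-loop-helix dimers were split, with 4 peaks at ID2, 3 at ID1 and none at ID3 or ID4. RUNX1 had 5 peaks in its long body (0.38 per 100 kb) and KLF1 had 3. RLIM, a ubiquitin ligase that acts on LDB1, and ISL1 had none, and LHX2 had 1.

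Since NB4 cells are of the granulocyte line, peaks at marker genes were counted as a check of the label. Of 10 neutrophil lineage genes 8 had a peak within 50 kb (80%, 49 to 94.3%), and of 10 red cell genes 9 did (90%, 59.6 to 98.2%), against 44.8% of all protein-coding genes. With a window of 3 kb it was 6 of each list (60%, 31.3 to 83.2%), against 19.7% of all. Some genes within a list lie close together, so their windows can share peaks and the intervals are too narrow. The lists are short and their intervals overlap, and peak positions do not give the expression of any gene. These counts do not tell the granulocyte line from the red cell line, so they could not check the label.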

How the data were processed

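The authors made 1 LDB1 and 1 IgG CUT&Tag library from NB4 cells. Per the methods of the study, Bowtie2 2.4.4 placed the reads on hg38 and MACS3 3.0 called peaks from whole read pairs. Whether IgG was the control of the calling, and whether duplicate or ambiguous reads were removed, is not given in the sources used here. Reads of repeated sequence could then add peaks. The deposited values were positions and lengths of peaks in bp, with no score or signal.

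Here peaks were counted in windows of GENCODE release 44 genes (overlap of at least 1 bp) using Python 3.11.15, pandas 2.3.3, SciPy 1.17.1 and pysam 0.24.0. Motifs were exact words. Copies of the central 31 bases were counted in hg38 on both strands. Shares have Wilson 95% intervals, densities exact Poisson intervals. With 1 library no test was made. All 10 genes are named, with every peak for genes of 6 or fewer peaks, and otherwise the longest, the nearest to the gene start and those with a composite in full. Genes and lists were chosen with earlier results of these data known. Counting and motif search were tested on simulated data. A further sequence is not reported here.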

Additional observations from a re-analysis of the deposited data

How the results depend on the processing

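No paired analysis was possible because only single libraries were made. The count of 45 peaks became 18 in the gene bodies alone, 22 with 3 kb and 27 with 10 kb around them, and the density of 1.85 per 100 kb became 1.25 in the bodies alone and 1.27 with only peaks of at least the median length, which stood in for a stricter threshold. The share near a transcript start fell from 51.1% to 22.2% within 1 kb. The GATA share was 13.3% in 100 bp, 48.9% in 300 bp and 62.2% in the whole peak, and the composite share was 2.22% in 100 bp. The E-box share was 22.2% in the bodies alone, 22.7% with 3 kb and 80% in the whole peak. The other 78 values obtained under the alternatives moved by less than their interval or, for counts, by less than 1.5 times. Genes with a peak numbered 6 in the bodies alone and with 3 kb (16.5% and 19.7% of all genes), 7 with 10 kb (25.1%), 9 with 100 kb (58.3%), and 7 with those longer peaks (32.2%) or with peaks whose centre occurs once (42.2%), where SSBP2 dropped out. Without the TAL1 locus, chosen after seeing the data, 32 peaks remained, at 1.38 per 100 kb. A motif window centred on a midpoint rather than a summit limits the motif shares, and the unknown depth limits what a gene without a peak shows.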
